A study of Mus musculus with 12 samples.

Results

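Microglia from mice with an allogeneic transplant were compared with microglia from mice with a syngeneic transplant on day 14, gene by gene over the whole transcriptome. The comparison takes all 8 libraries of these 2 groups out of 12 in the series, 4 against 4, and 12695 tested genes out of 24328 gene symbols, of which 18018 had any count. All animals were wild-type BALB/c mice and the labels give 4 mice per group. Recipients in both transplanted groups had been lethally irradiated and had received 5000000 bone marrow cells together with 300000 T cells, from a syngeneic or an allogeneic donor. In graft-versus-host disease (GvHD), donor T cells attack the tissues of the recipient, and the treatment protocol names day 14 as its peak. The mice were killed by perfusion and microglia were sorted from the brain by FACS. The other 4 libraries come from untransplanted control mice and are given here as the level before irradiation and transplantation. The sources used here do not give the donor strain, the sex or age of the mice, or the gate of the sort. Both transplanted groups share irradiation and the doses of bone marrow and T cells, so the contrast holds what the allogeneic donor adds. It cannot tell GvHD apart from the genotype of any donor cells in the sort.

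Library totals were 36422729 to 46126118 counts in the syngeneic and 35559202 to 42641198 counts in the allogeneic group. Within a group, libraries correlated at a Spearman correlation of 0.978 to 0.98 (syngeneic) and 0.975 to 0.977 (allogeneic) over the tested genes, which are not independent. The first principal component of the 8 libraries (32.1% of the variance) separated the groups, and the second (13.3%) spread the allogeneic libraries, with allogeneic 1 and allogeneic 4 at its ends. The labelled cell type was checked on 10 defining microglia markers, which summed to 40200 to 42190 CPM (counts scaled to library size, TMM-normalised) in the syngeneic and 30650 to 32120 CPM in the allogeneic libraries. Of these markers, 2 rose and 5 fell (median -0.18), and P2ry12, a receptor for ADP, accounted for most of the lower sum, with a mean of 17290 CPM in syngeneic and 9081 CPM in allogeneic microglia. Scaled by library totals alone, 1 marker rose and 8 fell. With an offset for transcript length and GC content, 2 rose and 2 fell. In such bulk samples, fewer cells of a type and less RNA per cell cannot be told apart. Values below are CPM per library in replicate order or mean ± SD (n = 4), and parentheses after a gene hold its log2 fold change ± SE, allogeneic minus syngeneic.

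Microglia are the resident macrophages of the brain, and in the resting state they carry receptors that survey the tissue and little of the machinery that presents antigen to T cells. Interferon-gamma, which activated T cells release, acts through its receptor and the JAK kinases on transcription factors of the STAT family. Dimers of these factors bind the GAS element, while complexes with IRF9, or other IRF proteins, bind the interferon-stimulated response element. The genes under these elements include MHC chains, the immunoproteasome, guanylate-binding proteins and restriction factors against viruses. MHC class II genes are switched on by the coactivator CIITA, which acts on a promoter module that includes the Y box.

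The stretches below show where these 3 short motifs lie upstream of some genes that were called higher in allogeneic microglia. For each motif, called genes of antigen presentation and interferon families were taken in order of p. Genes without an upstream match were passed over, so a match is how the printed genes were picked. The stretches come from the RefSeq promoter table of mouse build GRCm38.p6, which holds 250 bases before and 50 bases after each gene start, while the reads were aligned to mm9. Each is printed 5′ to 3′ on the strand of its gene, with 1 match of the motif in capitals. The GAS stretch of Gbp7 also holds a second match, left in lower case, so its window has 2 matches upstream of the start. The core of the interferon-stimulated response element was searched on both strands as GAAA, any 2 bases and GAAA again. It lies 139 to 130 bases before the start of B2m at chr2:122147528-122147577, 124 to 115 bases before that of H2-T23 at chr17:36032796-36032845, and 53 to 44 bases before that of Gbp7 at chr3:142530263-142530312.
B2m: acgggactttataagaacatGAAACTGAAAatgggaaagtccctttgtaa
H2-T23: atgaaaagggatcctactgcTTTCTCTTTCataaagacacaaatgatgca
Gbp7: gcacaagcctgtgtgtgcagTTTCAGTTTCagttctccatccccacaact

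The GAS core was searched as TTCNNNGAA, which reads the same on both strands. It lies 97 to 89 bases before the start of Psmb8 at chr17:34198078-34198126, 90 to 82 bases before that of Irf1 at chr11:53769904-53769952, and 87 to 79 bases before that of Gbp7 at chr3:142530229-142530277, so Gbp7 carries both motifs.
Psmb8: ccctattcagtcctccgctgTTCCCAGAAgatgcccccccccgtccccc
Irf1: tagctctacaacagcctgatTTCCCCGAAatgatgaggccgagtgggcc
Gbp7: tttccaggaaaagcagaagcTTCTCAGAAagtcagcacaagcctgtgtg

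The Y box core was searched as CTGATTGG on both strands. It lies 62 to 55 bases before the start of the class II gene H2-Eb1 at chr17:34305785-34305832, and on the other strand 52 to 45 bases before that of the class I gene H2-T23 at chr17:36032726-36032773 and 53 to 46 bases before that of the class I gene H2-D1 at chr17:35263021-35263068.
H2-Eb1: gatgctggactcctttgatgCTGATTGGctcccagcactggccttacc
H2-T23: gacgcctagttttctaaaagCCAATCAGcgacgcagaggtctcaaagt
H2-D1: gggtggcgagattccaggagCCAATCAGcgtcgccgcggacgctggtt

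The data on 4 of these genes are given first. H2-T23, a non-classical class I heavy chain, was at 262, 359, 296 and 313 CPM in syngeneic and 1694, 1946, 2327 and 1713 CPM in allogeneic microglia (2.64 ± 0.11). B2m, the light chain of every MHC class I molecule, was measured at 4548, 5449, 5423 and 5535 CPM in syngeneic and 17830, 19080, 19390 and 17350 CPM in allogeneic microglia. Irf1, a transcription factor induced by interferon, was at 56.5, 55.7, 49.9 and 57.2 against 242, 246, 339 and 246 CPM. Gbp7, a guanylate-binding protein, was at 257, 239, 238 and 191 against 1145, 938, 1033 and 1006 CPM. No allogeneic library of these 4 genes overlapped a syngeneic one, and all rose (B2m 1.81 ± 0.07, Irf1 2.29 ± 0.12, Gbp7 2.16 ± 0.12, edgeR adjusted p = 2.0e-12, 1.4e-10 and 2.2e-10).

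Matches to the interferon-stimulated response element were most frequent among genes with rises of 2 to 4 on the log2 scale. The core was present in 3.44% of all 32851 promoters in the table and in 3.21% of the 12763 promoters of tested genes, where 10016 tested genes had an entry. It was found in 2.58% of promoters of genes that were not called and 2.72% of promoters of genes called lower. Among genes called higher, the share was 5.71% at a log2 fold change under 1, 12.6% at 1 to 2, 23.9% at 2 to 4 and 7.89% at 4 and over. The GAS core was present in 8.30% of all promoters and in 6.68% of those of uncalled genes, with 7.65%, 9.55%, 10.9% and 15.8% in the same 4 classes. The Y box core (4.10% of all promoters) showed no such order, with 4.86%, 4.02%, 7.97% and 5.26%. The composite core of PU.1, the master factor of macrophages, with an IRF partner (GGAA, any 2 bases and GAAA, 2.72% of all promoters) was at 2.79%, 6.53%, 4.35% and 9.21%. The composite core and the response element core can share bases, and 79 promoters held both. By family, the response element core was in 2 of 9 genes of MHC class I and B2m with a promoter entry, 0 of 7 class II genes and 4 of 4 guanylate-binding proteins. The GAS core was in 1 of 9, 1 of 7 and 2 of 4 of them. For the Y box core these counts were 3 of 9, 3 of 7 and 0 of 4. These shares and counts describe letters in a window, and they were not tested.

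**Figure D1:**
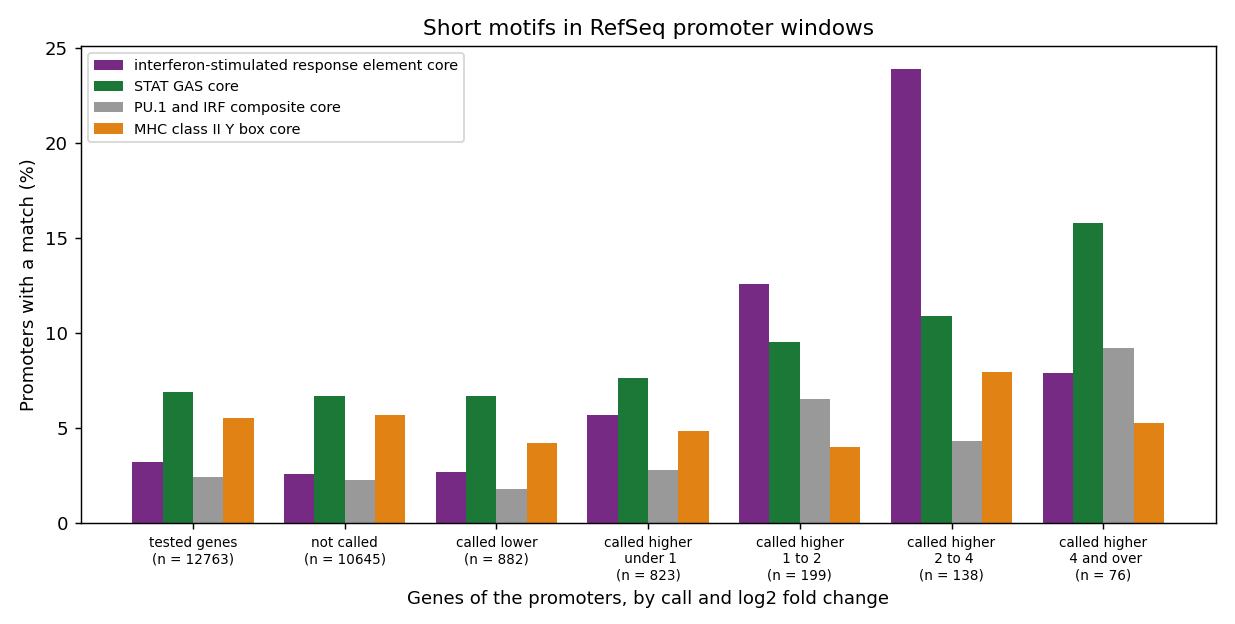
Share of RefSeq promoter windows of 300 bases that hold each short motif (y axis, percent), by the call and the log2 fold change of their gene (x axis, with the number of promoters). The response element core reaches 23.9% in genes called higher at a log2 fold change of 2 to 4 and stands at 2.58% in uncalled genes.

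Of the 12695 tested genes, 2098 were called at an adjusted p under 0.05 (16.5%), 1288 higher (10.1%) and 810 lower (6.38%). The allogeneic libraries did not overlap the syngeneic ones in 2631 genes (20.7%), 1603 with higher (12.6%) and 1028 with lower values (8.1%). Called genes without overlap were 1186 among those higher and 679 among those lower, and a further 417 and 349 genes separated the groups without being called. The balance of rises and falls depended on the scaling. With library totals in place of TMM factors, the test gave 844 higher and 2108 lower genes, while the median over all tested genes went from -0.01 to -0.22 on the log2 scale. TMM factors were 1.002 to 1.021 in syngeneic and 0.844 to 0.893 in allogeneic libraries. Directions in small or evenly split families are therefore relative to the median gene, and the families described here with a median between 0 and 0.20 change sign with that scaling.

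Most changes were small, and rises were spread over a wider range of sizes than falls. Among genes called higher, 357 had a log2 fold change under 0.5, 473 of 0.5 to 1, 215 of 1 to 2, 144 of 2 to 4 and 99 of 4 and over. Among genes called lower, these bands held 238, 405, 123, 17 and 27 genes. The called genes of 4 and over included 31 of the 99 and 10 of the 27 with 0 counts in a whole group, where the fitted value is no measured ratio. With these genes set to the ratio that 3 counts over the group would give, the band held 94 and 27 genes. Tested against a minimum effect, 497 genes were higher and 129 lower by more than 0.5, and 215 were higher and 18 lower by more than 1.

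The share of genes called rose with expression level, while the smallest size that was called fell. Below a mean log2 CPM of 0 (2054 genes), 69 genes were called higher and 32 lower, which is 4.92%. The shares were 6.19% at 0 to 2 (1471 genes), 9.89% at 2 to 4 (2932 genes), 16.2% at 4 to 6 (3769 genes), 34.2% at 6 to 8 (1884 genes) and 61.4% at 8 and over (585 genes). The median SE of a log2 fold change fell along these classes from 1.40 to 0.58, 0.28, 0.16, 0.11 and 0.075. The median size of a called rise fell from 6.42 (5.15 with genes at their bound) to 3.02, 1.30, 0.70, 0.53 and 0.65, and that of a called fall went from -5.86 (-4.96 with genes at their bound) to -1.57, -0.95, -0.63, -0.45 and -0.43. The smallest change called was 0.18 in the highest class and 1.60 in the lowest, so smaller changes in rare genes were not detectable at this depth. The medians of called changes hold only changes above this limit. Over all genes of a class, called or not, the median absolute log2 fold change was 0.998, 0.525, 0.314, 0.216, 0.217 and 0.335. In 2885 genes (22.8%) the 95% interval lay within 0.5 log2 units of no change, and 1390 of these had a mean log2 CPM of 4 to 6.

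With TMM scaling, abundant genes also leaned toward rises. At a mean log2 CPM of 8 and over, 272 genes rose and 87 fell, and the median log2 fold change of the class was 0.19. At 6 to 8 it was 0.05 with 436 genes that rose and 209 that fell, and at 4 to 6 it was -0.04 with 308 and 304. Classing the genes by their level in the control libraries, which take no part in the contrast, gave another balance at the top. Of 457 genes with a control mean of 8 and over, 134 rose and 111 fell, and their median was 0.0007. With library totals the medians were -0.07 below 0 and -0.16 at 6 to 8, and that of all tested genes was -0.22. The lean toward rises in the classes above is therefore given for TMM scaling only.

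**Figure D2:**
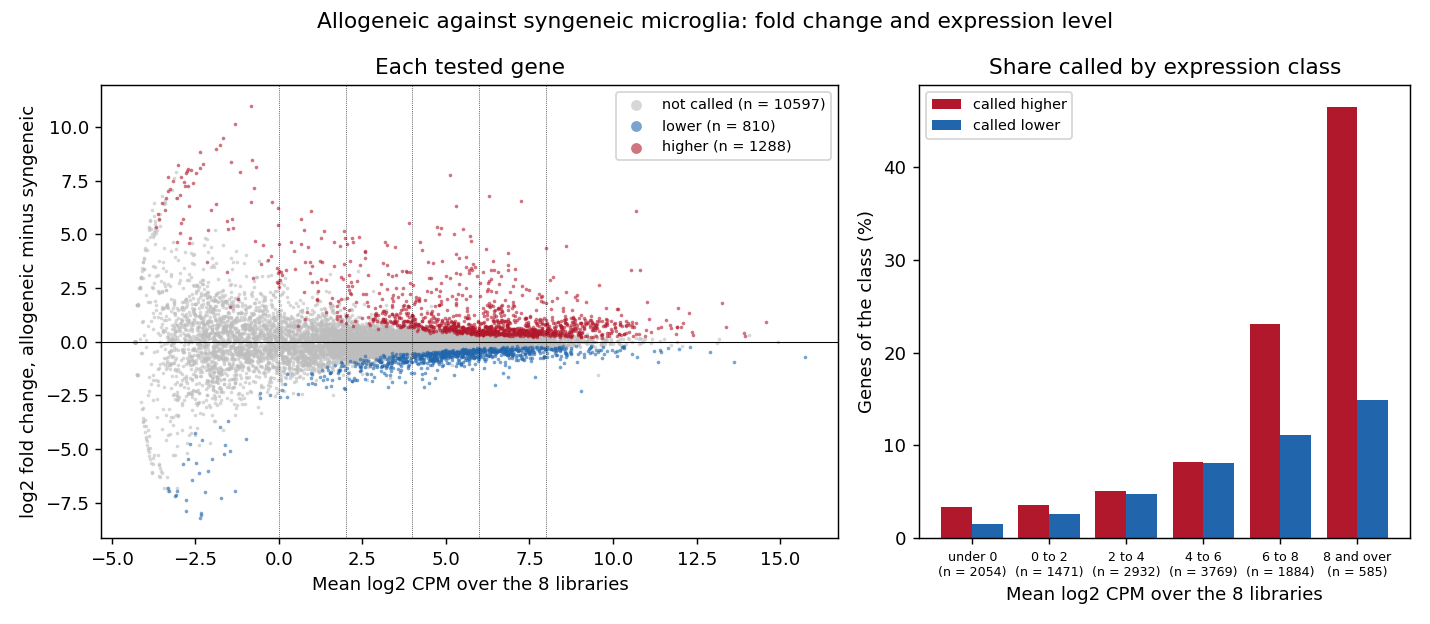
Left, log2 fold change of each tested gene (y axis) against its mean log2 CPM over the 8 libraries (x axis), with called genes in red and blue. Right, share of genes called higher and lower in each expression class, with 4.92% called in all below 0 and 61.4% at 8 and over.

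At each expression level some genes separated the groups clearly. In the rarest class, Ubd, a ubiquitin-like modifier also called FAT10, had 0 counts in every syngeneic library and 6.37, 7.02, 8.75 and 3.68 CPM in the allogeneic ones, at least 361-fold higher taking 3 counts over the syngeneic group as the floor. Abca13, an ABC transporter, stood at 2.72, 6.31, 1.83 and 1.14 CPM in syngeneic libraries and at 0, 0.0801, 0 and 0 CPM in allogeneic ones. Its 527 syngeneic against 3 allogeneic counts give a ratio of 145 with a 95% exact interval of 49.3 to 705 for counting error only. Its fitted log2 fold change of -6.95 was -6.30 without syngeneic 2 and -9.90 without allogeneic 2.

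At 0 to 2 log2 CPM, Serping1, the inhibitor of the first complement component, went from 0.334, 0.668, 0 and 0.0758 CPM to 15.9, 17.7, 22.4 and 19.4 CPM (6.07 ± 0.71, and 7.01 without syngeneic 2). Emilin2, a glycoprotein of the extracellular matrix, went from 0.758, 0.840, 1.34 and 1.54 to 9.17, 17.0, 9.61 and 19.8 CPM, while the zinc finger factor gene Sall2 went from 4.06, 3.81, 6.22 and 5.91 to 2.08, 1.495, 1.11 and 1.35 CPM (-1.73 ± 0.35). In these 3 genes the groups did not overlap, and Sall2 had stood at 9.23 CPM in control microglia.

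At 2 to 4 log2 CPM the class I genes H2-Q10 (3.26 ± 0.19) and H2-Q5 (3.58 ± 0.23) rose from 2.16 to 6.09 CPM over both genes to 29.2 to 51.5 CPM. Reads of such near-identical H2 genes may be shared between them, and the sources used here do not say how they were counted. The mm9 build is of C57BL/6J and the mice are Balb/c, and the part of strain differences in these polymorphic genes was not tested. Tmem204, which encodes a membrane protein, fell from 29.7, 22.04, 31.4 and 23.6 CPM to 6.65, 6.92, 8.32 and 6.65 CPM (-1.90 ± 0.155), from 95.2 CPM in control microglia. Sema4b, a membrane-bound semaphorin, fell from 16.1 to 18.7 CPM to 4.22 to 6.66 CPM (-1.55 ± 0.18). Tmem204 and Sema4b thus stood lowest in the allogeneic and highest in the control group.

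At 4 to 6 log2 CPM, Ddah2, of the family of dimethylarginine hydrolases, fell from 61.9, 67.1, 66.1 and 66.1 to 22.5, 20.7, 24.6 and 19.9 CPM (-1.57 ± 0.14), against 56.1 CPM in control microglia. At 6 to 8, Hpgd, the dehydrogenase that inactivates prostaglandins, fell from 206, 233, 195 and 186 to 75.9, 49.6, 70.0 and 68.0 CPM (-1.64 ± 0.13), while the control mean was 84.5 CPM. At 8 and over, Pmp22, a membrane protein known from myelin, fell from 552, 546, 491 and 535 to 263, 253, 255 and 282 CPM (-1.01 ± 0.07), with a control mean of 423 CPM. The groups did not overlap in any of these 3 genes, and in each the syngeneic mean was above the control mean.

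The CPM gained by genes called higher summed to 223300 and that lost by genes called lower to -74910, on the TMM scale, where library sums are not fixed. Genes with a log2 fold change under 1 carried 53.95% of the gain. The 10 genes with the largest gains held 32.68% of it and the 10 with the largest losses 59.68% of the loss. The largest gain was that of Ctss, the protease that trims the invariant chain from MHC class II molecules, with 17300, 17710, 18140 and 17400 against 32280, 35030, 33520 and 31700 CPM. The largest loss was that of Cst3, cystatin C, an inhibitor of such proteases, with 72270, 70660, 73570 and 62930 against 43820, 41360, 44640 and 42460 CPM. The gene of the protease and that of the inhibitor moved in opposite directions by 15490 and -26790 CPM, and both had no overlap between groups (Ctss 0.91 ± 0.05, Cst3 -0.70 ± 0.05).

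Ctsd, cathepsin D, had the highest level among called rises under 0.5, at 13930, 13390, 14320 and 16590 against 15780, 18640, 17210 and 17440 CPM. Its groups overlapped, and its call (0.25 ± 0.07) was lost at adjusted p of 0.0567 to 0.0997 when any of syngeneic 1, 2 or 3 or allogeneic 2, 3 or 4 was left out, and under library totals (0.04). Laptm5, a lysosomal membrane protein of blood-derived cells, fell by 0.24 from 5179 to 5882 CPM to 4318 to 4879 CPM without overlap, and had stood at 8955 CPM in control microglia.

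Most genes of antigen presentation rose, beside 10.1% of all tested genes that were called higher. Of 10 tested genes of MHC class II chains and their partners, 9 rose and 0 fell (median 3.90), and their summed level was 822.9 to 1005 CPM in syngeneic and 17090 to 21400 CPM in allogeneic microglia, against 466.8 to 543.7 CPM in controls. Cd74, the invariant chain, alone gained 13490 CPM. H2-Ab1, a class II beta chain, was at 73.0, 102, 76.9 and 82.9 against 1730, 1935, 2104 and 1544 CPM (4.45 ± 0.12). Of 13 tested MHC class I heavy chain genes and B2m, 12 rose and 0 fell (median 3.26), and all 13 had no overlap between groups. H2-K1, a classical class I heavy chain, went from 431, 562, 555 and 717 to 5256, 6282, 5872 and 5311 CPM (3.33 ± 0.14), from a control mean of 220 CPM.

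Peptides for class I are cut by the proteasome, which has inducible and constitutive parts. Of 13 genes of the immunoproteasome and of peptide loading, 11 rose and 0 fell (median 1.16). Psmb8, an inducible catalytic subunit, was at 204, 218, 219 and 209 against 616, 617, 710 and 567 CPM (1.56 ± 0.08), and Psmb9 (1.68 ± 0.11) and the activator subunit Psme1 (1.47 ± 0.11) rose by similar sizes. Of 34 genes of the constitutive proteasome, 15 rose and 1 fell (median 0.26). Tested against a minimum of 0.5, 0 of them rose, where 10 of the 13 genes of the immunoproteasome and of peptide loading did. Psmb1, a subunit common to both forms, went from 248, 265, 251 and 239 to 392, 380, 409 and 358 CPM (0.62 ± 0.07). The constitutive list kept 7 rises and 1 fall under library totals, with a median of 0.06.

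**Figure D3:**
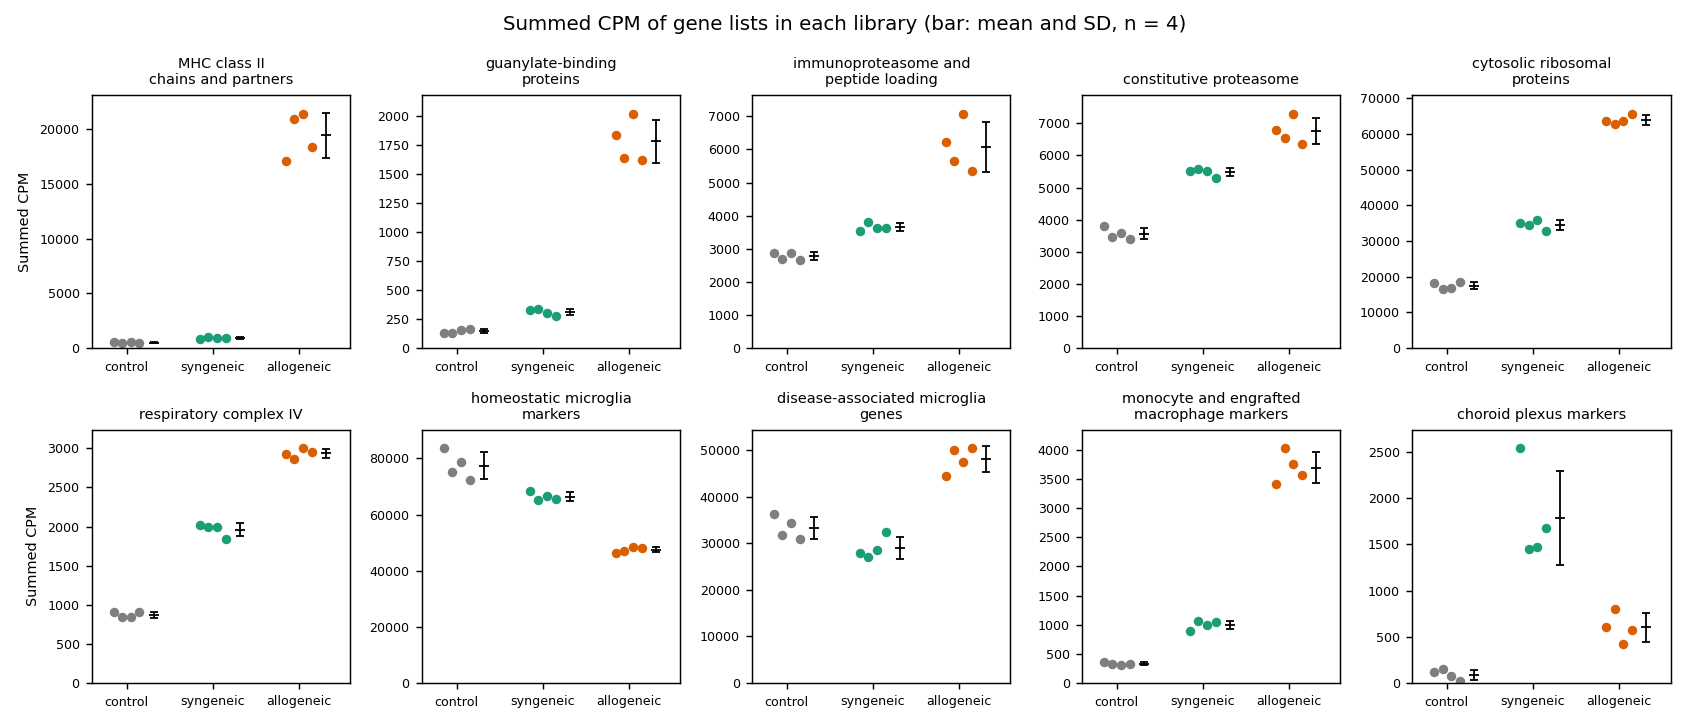
Summed CPM of 10 gene lists in each control, syngeneic and allogeneic library (points), with the mean and SD of 4 libraries as bars. MHC class II genes reach 17090 to 21400 CPM in allogeneic libraries only, while ribosomal protein genes rise from 16610 to 18440 CPM in control to 32740 to 35970 CPM in syngeneic and 62680 to 65710 CPM in allogeneic libraries.

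Receptor genes for interferons had smaller fold changes than many genes downstream of them. Of 7 tested receptors of the interferon and interleukin 10 families, 1 rose and 2 fell (0 and 2 under library totals). Ifngr2, a chain of the interferon-gamma receptor, was at 227, 246, 244 and 227 against 306, 300, 304 and 275 CPM (0.33 ± 0.07, edgeR adjusted p = 0.0033, and 0.13 without a call under library totals). Ifngr1, the other chain of that receptor, fell from a mean of 515.5 to 442.7 CPM without overlap (-0.22 ± 0.07, edgeR adjusted p = 0.046). The other fall was that of Ifnar2 (-0.38 ± 0.11), whose groups overlapped. Of 18 JAK, STAT and SOCS genes, 5 rose and 2 fell (4 and 4 under library totals). Stat2, a transducer of type I interferon signals, was at 25.05, 34.5, 31.35 and 25.2 against 83.4, 86.3, 104 and 66.4 CPM (1.55 ± 0.17), and Socs2, a feedback inhibitor of cytokine receptors, rose from 0.797 to 2.27 CPM to 20.8 to 27.4 CPM (3.90 ± 0.40). The groups did not overlap in either gene.

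Of 9 interferon regulatory factors, 4 rose and 1 fell (3 and 2 under library totals). Irf7, which amplifies type I interferon, was at 20.2, 41.9, 23.8 and 37.3 against 179, 219, 226 and 180 CPM (2.71 ± 0.21), and Irf9 rose by 0.46 ± 0.11 (not called under library totals, 0.25). Irf8, a lineage factor of microglia and the family member with the highest CPM, was at 315, 371, 351 and 397 against 400, 394, 482 and 414 CPM. Its groups overlapped and it was not called (Irf8 0.24 ± 0.08, edgeR adjusted p = 0.064), but it was called without syngeneic 4 (adjusted p = 0.048), by DESeq2 (adjusted p = 0.029) and with the length and GC offset (adjusted p = 0.0062).

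In both families of inducible GTPases every tested member rose. All 9 tested guanylate-binding proteins, which attack the vacuoles of intracellular pathogens, rose (median 3.43, range 2.12 to 5.29), and their sum went from 311 ± 24.97 to 1778 ± 188 CPM against 127 to 165.3 CPM in controls. All 9 tested immunity-related GTPases rose (median 3.14), and 8 of them under library totals. Irgm1, a regulator of this family, was at 112, 136, 103 and 97.1 against 474, 458, 584 and 374 CPM (2.08 ± 0.13). Tgtp2 was at 2.34, 7.71, 3.04 and 2.73 against 96.6, 94.1, 137 and 74.2 CPM (4.66 ± 0.34).

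Families of antiviral restriction factors rose with more exceptions. Of 9 Ifit and Ifitm genes, 7 rose and 1 fell (median 2.14). Ifitm3, which blocks virus entry, was at 78.8, 139, 99.3 and 98.4 against 634, 708, 1030 and 647 CPM (2.86 ± 0.18), while Ifitm10 fell by 0.93 from 8.75 to 15.3 CPM to 4.75 to 7.51 CPM. Of 9 oligoadenylate synthetases and RNase L, 5 rose and 0 fell (median 2.14), among them Oas2 (3.02 ± 0.40). Of 6 Schlafen genes, 5 rose and 0 fell (median 1.57), and Slfn2 went from 119, 194, 161 and 136 to 566, 576, 640 and 458 CPM (1.87 ± 0.13). Of 12 PARP genes, 6 rose and 1 fell (median 0.50). The rises included Parp9 (1.48 ± 0.14) and Parp14 (1.09 ± 0.19), both inducible by interferon, and the fall was that of Parp1, the DNA damage sensor (-0.71 ± 0.13).

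Sensors of foreign nucleic acid also rose as a group. Of 10 PYHIN genes, which bind DNA, 6 rose and 0 fell (median 2.83), and 9 had no overlap between groups. Ifi204 was at 11.3, 26.7, 11.7 and 16.3 against 193, 195, 231 and 182 CPM (3.60 ± 0.30). Of 14 other RNA and DNA sensors, 10 rose and 0 fell (median 1.09). They included Ifih1, the RNA sensor MDA5 (1.57 ± 0.13), Eif2ak2, the kinase PKR (1.23 ± 0.13), and Samhd1, which depletes nucleotides (1.48 ± 0.11). Near-identical members of the PYHIN, Gbp and immunity-related GTPase families may share reads.

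The ubiquitin families held rises and falls, with 11.9% to 23.1% of members called beside 16.5% of all tested genes. Isg15, a ubiquitin-like protein, and the genes described with it are single members of these families and were not fixed as a list. Of 44 E2 enzymes and ubiquitin-like modifiers, 8 rose and 2 fell (4 and 9 under library totals). Isg15 was at 26.7, 60.2, 43.7 and 39.3 against 192, 192, 297 and 160 CPM (2.31 ± 0.28), and its conjugating enzyme Ube2l6 at 105, 142, 130 and 125 against 372, 310, 427 and 298 CPM (1.49 ± 0.12). Of 44 ubiquitin-specific proteases, 4 rose and 4 fell (2 and 9 under library totals, and 2 rises without syngeneic 3 or allogeneic 2 or 3). Usp18, which removes ISG15, was at 72.5, 207, 101 and 121 against 449, 478, 611 and 342 CPM (1.91 ± 0.31). Of 39 TRIM genes, 5 rose and 4 fell (5 and 8 under library totals, and 1 or 2 falls without syngeneic 2 or 4 or allogeneic 3). Trim30a (1.11 ± 0.11) and Trim25 (0.92 ± 0.16), an E3 ligase for ISG15, were among the rises. Of 59 RNF ubiquitin ligases, 4 rose and 3 fell (2 and 12 under library totals).

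Innate receptors and their adaptors rose in part, with 25% to 41.7% of members called, beside 16.5% of all tested genes. Of 24 Toll-like receptors and adaptors, 8 rose and 2 fell (6 and 4 under library totals), and 5 rose without syngeneic 2 or 3. Ly86, the partner of the receptor-like protein CD180, was at 3225, 3626, 3345 and 3133 against 5348, 5208, 5531 and 5086 CPM (0.67 ± 0.05), and Tlr3, the receptor for double-stranded RNA, rose by 0.98 ± 0.10. Of 12 NOD-like receptors, 3 rose and 0 fell. Among them Nlrc5, the coactivator of MHC class I genes, went from 3.32, 4.61, 1.48 and 1.11 to 35.1, 31.2, 38.8 and 27.3 CPM (3.64 ± 0.54) without overlap, and Naip2 rose by 0.99 ± 0.13. Of 17 TREM and CD300 receptors, 7 rose and 0 fell (median 0.95). The shared signalling adaptor Tyrobp was at 1714, 1708, 1740 and 1530 against 2395, 2536, 2505 and 2436 CPM (0.56 ± 0.07), and the inhibitory receptor gene Pilra rose by 1.65 ± 0.11.

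Fc receptors, which bind antibodies, rose in most members. Of 9 tested, 6 rose and 1 fell (median 0.45). Fcgr4 went from 37.3, 37.4, 24.9 and 42.1 to 269, 275, 422 and 225 CPM (3.07 ± 0.21), and the common signalling chain Fcer1g from 1946, 1939, 2072 and 1806 to 2572, 2631, 2848 and 2523 CPM (0.45 ± 0.06). The fall was that of Fcrls, an Fc receptor-like gene typical of resting microglia, from 1217, 1229, 1116 and 1153 to 279, 179, 252 and 234 CPM. Of 8 Siglecs, which bind sialic acid, 4 rose and 0 fell (median 0.74), among them Siglec1 (3.70 ± 0.28) and Siglecf (1.34 ± 0.11). Siglech, the microglial member, was not called (-0.06 ± 0.05, but -0.26 and called under library totals), and its 2388, 2341, 2312 and 2187 CPM overlapped the 2197, 2251, 2240 and 2174 CPM of allogeneic microglia. All 5 tested Ms4a genes, which encode membrane proteins of myeloid cells, rose (median 2.44), and Ms4a6d went from 460, 448, 430 and 389 to 976, 930, 1112 and 946 CPM (1.20 ± 0.08).

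In the families of cytokine receptors and ligands, 31.6% to 44.4% of members were called, beside 16.5% of all tested genes. Of 24 interleukin receptors, 5 rose and 3 fell. Il2rg, the common gamma chain of the receptors for interleukins 2 and 15, was at 15, 22.96, 12.2 and 21.3 against 172, 224, 223 and 174 CPM (3.47 ± 0.20), and Il15ra rose by 1.94 ± 0.21. Il6st, the shared signal chain gp130, fell from 76.4 to 85.9 CPM to 35.1 to 55.6 CPM (-0.75 ± 0.16). Of 9 ligands of the TNF superfamily, 4 rose and 0 fell (median 1.52). Tnfsf8, the ligand of CD30, was at 5.10, 7.63, 4.22 and 6.92 against 41.1, 42.1, 38.3 and 38.6 CPM (2.74 ± 0.26), and Tnfsf10, the death ligand TRAIL, rose by 2.22 ± 0.34. Of 19 receptors of the TNF superfamily, 3 rose and 3 fell (2 and 7 under library totals), with Tnfrsf17, a receptor for survival factors of plasma cells, among the falls (-1.12 ± 0.23).

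Of 14 chemokine receptors, 4 rose and 3 fell (3 and 5 under library totals), or 50% called, beside 16.5% of all tested genes. The sign of their median, 0.68, turned when rare genes were filtered out. Ccrl2, a non-signalling receptor, rose by 1.71 ± 0.19. Ccr6, the receptor of CCL20, fell from 231, 217, 220 and 208 to 116, 152, 116 and 143 CPM (-0.74 ± 0.09), and Cx3cr1, the receptor of fractalkine, from 4193 to 5192 CPM to 3303 to 3926 CPM (-0.33 ± 0.08, and -0.19 without a call with the length and GC offset). With the filter of 1 CPM in 4 libraries the median of this family was -0.23, and it was -0.27 without allogeneic 1 and -0.22 without allogeneic 3.

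Adhesion and purine receptors changed in both directions. Of the integrins 37.5% and of the purinergic genes 31.2% were called, beside 16.5% of all tested genes. Of 16 integrins, 4 rose and 2 fell (4 and 7 under library totals). Itgax, CD11c, went from 14.4, 15.7, 21.1 and 16.1 to 73.9, 132, 126 and 102 CPM (2.69 ± 0.18), and the common chain Itgb2 rose by 0.51 ± 0.07. Itgb3 fell by 1.11 and Itga9 by 0.99 on the log2 scale. Of 16 purinergic receptors and ectonucleotidases, 3 rose and 2 fell (4 and 2 under library totals, where the list median was -0.14 instead of 0.06), and the list summed to 19780 to 21860 CPM in syngeneic and 11710 to 12350 CPM in allogeneic microglia, most of it P2ry12. P2ry13, a receptor for ADP, was at 2237, 2290, 2082 and 2150 against 1306, 1341, 1295 and 1351 CPM (-0.73 ± 0.06), while P2rx4, an ATP-gated channel, went from 72.6, 82.5, 74.2 and 72.9 to 141, 153, 157 and 142 CPM (0.97 ± 0.12).

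**Figure D4:**
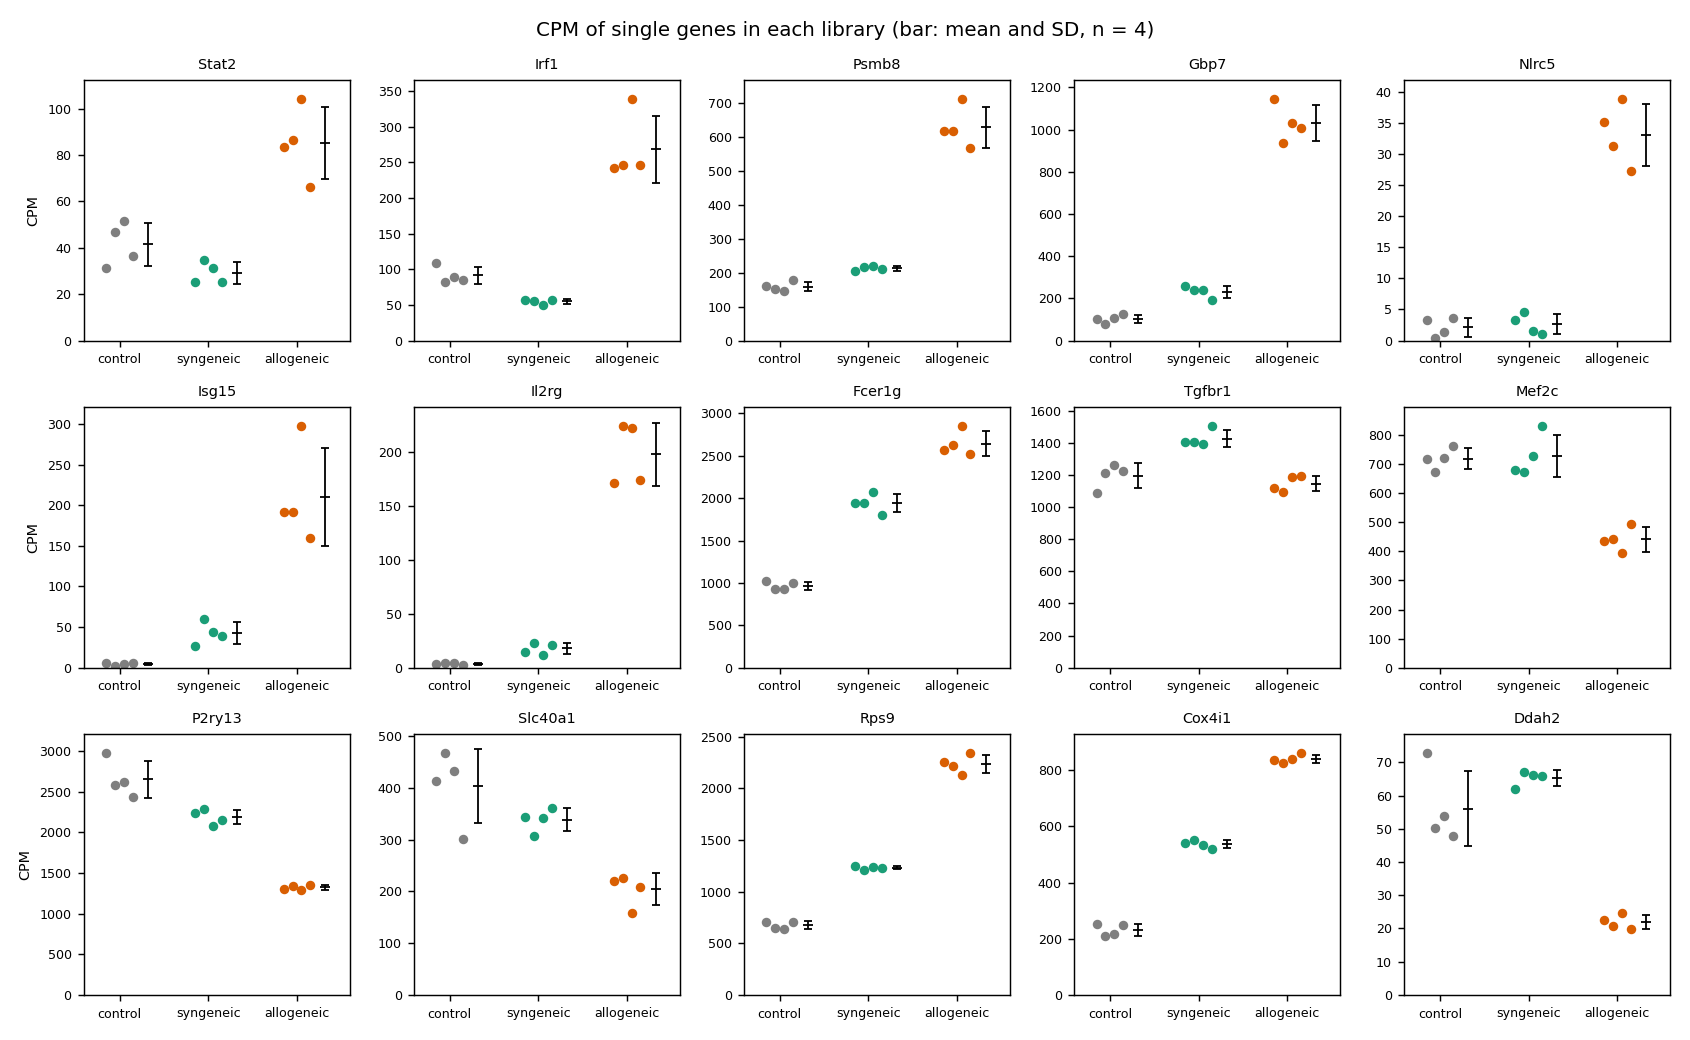
CPM of 15 genes named in the text in each control, syngeneic and allogeneic library (points), with the mean and SD of 4 libraries as bars and each axis starting at 0. In every panel the 4 allogeneic libraries lie all above or all below the 4 syngeneic ones.

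NF-kappaB genes were called in 20% and dual-specificity phosphatases in 25% of members, beside 16.5% of all tested genes. Of 25 NF-kappaB subunits and inhibitors, 3 rose and 2 fell (3 and 4 under library totals, where the median was -0.03 instead of 0.17). The inhibitor Nfkbia, itself a target of the factor, went from 95.3, 123, 111 and 136 to 212, 286, 278 and 214 CPM (1.09 ± 0.16), and the subunit Nfkb1 fell from 118, 149, 134 and 143 to 92.3, 103, 93.0 and 79.9 CPM (-0.56 ± 0.09). Of 21 AP-1, ATF and EGR factors, 0 rose and 0 fell by edgeR, with 2 at an unadjusted p under 0.05 and 0 by DESeq2 or limma-voom. Of 16 dual-specificity phosphatases, which switch off MAP kinases, 1 rose and 3 fell (1 and 4 under library totals), led by Dusp3, which went from 502, 431, 433 and 445 to 250, 259, 264 and 248 CPM (-0.83 ± 0.09).

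TGF-beta, which maintains the resting state of microglia, was represented by 21 receptor, SMAD and target genes, of which 1 rose and 5 fell (0 and 7 under library totals). That is 28.6% called, beside 16.5% of all tested genes. Tgfbr1 was at 1405, 1405, 1394 and 1504 against 1117, 1093, 1185 and 1191 CPM (-0.32 ± 0.06) and Tgfbr2 at 302, 293, 298 and 321 against 362, 407, 361 and 372 CPM (0.31 ± 0.07), so the genes of both receptor chains moved in opposite directions without overlap, although Tgfbr2 was not called under library totals (0.10). Smad3, a transducer of the signal, fell by 0.73 on the log2 scale.

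Genes of microglial identity fell by modest amounts. Of 24 homeostatic microglia markers, 0 rose and 19 fell (median -0.52, range -2.32 to -0.03), beside 6.38% of all tested genes called lower. Tested against a minimum of 0.5, 7 fell. Under library totals all 24 fell, and with an offset for transcript length and GC content 16 fell. Their summed level was 65020 to 68310 CPM in syngeneic and 46470 to 48510 CPM in allogeneic microglia, against 72460 to 83610 CPM in controls. Of 38 myeloid transcription factors, 6 rose and 6 fell (4 and 12 under library totals, where the median was -0.11 instead of 0.10). Mef2c, a factor of microglial enhancers, went from 680, 671, 729 and 830 to 434, 441, 393 and 496 CPM (-0.72 ± 0.08), and the identity factor Sall1 from 326 to 345 CPM to 246 to 272 CPM (-0.38 ± 0.06, and -0.17 without a call with the length and GC offset).

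Of 24 genes of disease-associated microglia, a state described around plaques and lesions, 19 rose and 1 fell (median 1.20). Cd52, a surface glycopeptide, went from 221, 258, 253 and 260 to 902, 941, 1076 and 827 CPM (1.92 ± 0.09), and Apoe, an apolipoprotein, from 2140, 1987, 2053 and 3208 to 6526, 6417, 5913 and 8729 CPM (1.55 ± 0.17). The summed list was 26980 to 32410 CPM in syngeneic and 44350 to 50350 CPM in allogeneic microglia, whereas the control libraries held 30830 to 36170 CPM. The syngeneic range of this list overlapped the control range, and the allogeneic range overlapped neither.

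Lysosomal genes rose in part. Of 16 cathepsins and cystatins, 11 rose and 1 fell (median 0.74), the fall being that of Cst3. Their summed CPM nevertheless overlapped, at 116300 to 124600 in syngeneic and 115700 to 122800 in allogeneic libraries. Ctsc, which activates granule proteases, went from 628, 652, 695 and 666 to 1836, 1822, 2282 and 1583 CPM (1.51 ± 0.09). Of 31 lysosomal hydrolases, 16 rose and 1 fell (8 and 5 under library totals, median 0.33), with Neu1, a sialidase, from 17.4 to 25.7 CPM to 41.9 to 55.6 CPM (1.11 ± 0.16) and Arsb, a sulfatase, as the fall (-0.51 ± 0.06). Of 18 subunits of the V-ATPase, 6 rose and 0 fell (2 and 2 under library totals), among them Atp6v0e (0.45 ± 0.07).

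Lipid and iron genes pointed both ways. Of 22 genes of lipoprotein uptake and cholesterol efflux, 11 rose and 4 fell (median 0.83). The scavenger receptor gene Msr1 went from 9.79, 17.6, 12.5 and 13.1 to 105, 120, 145 and 110 CPM (3.18 ± 0.27), and Npc2, which carries cholesterol out of the lysosome, from 928, 1073, 987 and 1101 to 1750, 1813, 1779 and 1751 CPM (0.79 ± 0.07). The receptor gene Lrp1 (-0.58 ± 0.08) and the efflux transporter gene Abcg1 (-0.46 ± 0.08) fell. Of 33 ABC transporters, 2 rose and 6 fell (1 and 11 under library totals), with Abca9 (-0.67 ± 0.08) and Abcc3 (-0.61 ± 0.10) among the falls. Of 15 iron genes, 5 rose and 2 fell (4 and 3 under library totals, where the median was -0.15 instead of 0.05). The ferritin heavy chain Fth1 went from 3087, 2887, 3193 and 3190 to 7161, 7724, 8130 and 8300 CPM (1.34 ± 0.06), while Slc40a1, ferroportin, the only known exporter of cellular iron, fell from 343, 308, 342 and 361 to 220, 227, 159 and 209 CPM (-0.73 ± 0.12).

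Ribosomal protein genes rose almost as a block and by similar amounts. Of 80 tested cytosolic ribosomal protein genes, 75 rose and 0 fell (median 0.88, also 75 and 0 under library totals), and 70 rose by more than 0.5 against that minimum. Rps9 was at 1248, 1209, 1237 and 1231 against 2256, 2213, 2129 and 2339 CPM (0.86 ± 0.06), and at 676 CPM in control microglia. The summed list made 16610 to 18440 CPM in control, 32740 to 35970 CPM in syngeneic and 62680 to 65710 CPM in allogeneic libraries, so no library of one group overlapped another. Ribosomal protein genes have many processed pseudogenes, with which reads may be shared. Of 77 mitochondrial ribosomal proteins, 13 rose and 1 fell (1 and 3 under library totals, median 0.21), or 18.2% called, which is near the 16.5% of all tested genes.

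Translation factors followed in part. Of 18 elongation and release factors, 8 rose and 2 fell (median 0.25). Eef1a1, which brings transfer RNA to the ribosome, was at 3094, 3056, 3022 and 3016 against 4782, 4752, 4978 and 5059 CPM (0.68 ± 0.06), and Eef2k, the kinase that halts elongation, fell by 0.72 on the log2 scale. Of 51 initiation factors, 14 rose and 2 fell (8 and 7 under library totals, where the median was -0.07 instead of 0.13). The eIF3 subunits Eif3h (0.69 ± 0.07) and Eif3e (0.65 ± 0.08) rose, and Eif4g2 fell from 1297 to 1436 CPM to 1100 to 1229 CPM (-0.24 ± 0.06). Of 20 cytosolic aminoacyl-tRNA synthetases, 2 rose and 3 fell (0 and 7 under library totals), including Yars (-0.68 ± 0.15).

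Respiratory chain genes rose by smaller amounts than ribosomal protein genes. Of 36 complex I subunits, 24 rose and 0 fell (12 and 2 under library totals, median 0.37). The counts were 7 and 0 of 13 for complexes II and III (5 and 2 under library totals, median 0.35), 11 and 0 of 16 for complex IV (median 0.58) and 11 and 0 of 16 for ATP synthase (median 0.48). Cox4i1, a subunit of complex IV, was at 542, 552, 534 and 519 against 835, 828, 839 and 860 CPM (0.65 ± 0.07), and at 232 CPM in control microglia. Against a minimum of 0.5 only 1, 1, 2 and 0 of these genes rose, in the same order. Complex IV genes summed to 1841 to 2016 CPM in syngeneic, 2862 to 3001 CPM in allogeneic and 838.2 to 909.2 CPM in control libraries.

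Beside 16.5% of all tested genes, 18.2% of TCA cycle genes, 39.1% of glycolysis genes and 53.8% of genes of the pentose phosphate pathway and the NADPH oxidase were called. Of 22 genes of the TCA cycle, 3 rose and 1 fell (3 and 5 under library totals, where the median was -0.20 instead of 0.01). Irg1, which diverts the cycle to itaconate, was at 0.223, 1.31, 0.0274 and 0.657 against 13.1, 12.7, 27.0 and 11.4 CPM (4.83 ± 0.74, and 5.71 without syngeneic 2). Sdhb, a subunit of succinate dehydrogenase, rose by 0.48 ± 0.08, and the mitochondrial isocitrate dehydrogenase Idh2 fell from 188, 178, 176 and 208 to 139, 99.7, 128 and 114 CPM (-0.64 ± 0.11). Of 23 glycolysis genes, 8 rose and 1 fell (4 and 2 under library totals, median 0.32), with Gapdh as an example of a rise (0.70 ± 0.10) and the fructose transporter Slc2a5 as the fall (-0.97 ± 0.16). Of 13 genes of the pentose phosphate pathway and the NADPH oxidase, 7 rose and 0 fell (2 and 1 under library totals, and 4 rises without syngeneic 2), led by Cybb, the catalytic subunit of the oxidase, from 90.7, 115, 103 and 110 to 735, 904, 912 and 785 CPM (2.99 ± 0.14).

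Fold changes also moved with transcript length. Among genes with transcripts under 1 kb, 652 rose and 259 fell of 4730 (median 0.04), and among those of 5 kb and over, 22 rose and 33 fell of 355 (median -0.11). The order was also present in genes at or above 4 in mean log2 CPM, with 569 and 207 of 2672 (median 0.06) against 10 and 21 of 142 (median -0.11). With an offset for length and GC content, 75 ribosomal protein genes rose and 0 fell with a median of 0.83, and complex I held 20 rises and 1 fall with a median of 0.30. Over all genes that offset left 1315 called higher and 764 lower.

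Genes of protein folding and redox defence rose in part. Of 22 ER chaperones and unfolded protein response genes, 9 rose and 1 fell (4 and 1 under library totals, median 0.29). Hspa5, the master chaperone BiP, was at 1257, 1309, 1075 and 1162 against 2006, 1772, 2287 and 1709 CPM (0.69 ± 0.11). Of 37 heat shock proteins, not all of them cytosolic, 9 rose and 1 fell (4 and 9 under library totals, where the median was -0.17 instead of 0.02). The rises included Hspe1, a chaperonin of mitochondria (0.94 ± 0.09). Of 25 NRF2 and glutathione genes, 9 rose and 2 fell (7 and 3 under library totals, where the median was -0.01 instead of 0.19). The peroxiredoxin Prdx5 rose by 1.06 ± 0.11, and Gclc, which makes the precursor of glutathione, fell from 23.3, 42.6, 47.7 and 31.7 to 21.3, 22.9, 14.4 and 21.5 CPM (-0.86 ± 0.21).

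Beside 16.5% of all tested genes, 25% of BCL2 family genes, 36.8% of caspases, gasdermins and necroptosis genes and 15.2% of MCM and replication genes were called. Of 20 genes of the BCL2 family, 4 rose and 1 fell (3 and 5 under library totals, where the median was -0.16 instead of 0.04). Bcl2a1a, a survival factor with near-identical copies, went from 32.6, 33.0, 34.9 and 44.5 to 169, 188, 221 and 167 CPM (2.36 ± 0.17), and Bcl2l11, the death factor BIM, fell by 0.71 on the log2 scale. Of 19 caspases, gasdermins and necroptosis genes, 5 rose and 2 fell (4 and 5 under library totals), among them Casp1 (0.79 ± 0.12) and the inflammasome adaptor Pycard (0.77 ± 0.07). Of 46 MCM and replication genes, 1 rose and 6 fell (0 and 13 under library totals, median -0.18), led by the helicase subunit Mcm4 from 87.1, 91.6, 80.5 and 86.4 to 32.5, 42.2, 27.9 and 41.1 CPM (-1.27 ± 0.19). Of 24 mitotic genes, 0 rose and 0 fell by edgeR, with 2 at an unadjusted p under 0.05, 0 by DESeq2 and 2 by limma-voom. Top2a, the mitotic gene with the highest CPM, was at 173, 176, 172 and 148 against 173, 122, 133 and 98.1 CPM with overlap, at 8.16 CPM in control microglia, and was not called (-0.35, edgeR adjusted p = 0.119), but was called without allogeneic 1 (-0.51, adjusted p = 0.015), under library totals (-0.55) and by limma-voom (-0.38).

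Zfp genes, SWI/SNF and CHD remodellers, Mediator subunits and nucleoporins were called in 4.55% to 10% of members, beside 16.5% of all tested genes. Of 322 tested zinc finger genes named Zfp, 4 rose and 22 fell (8.07%, median -0.15, and 2 and 51 under library totals), and 1 or 2 rose without control 1 or 3, syngeneic 1 or 3 or allogeneic 2 or 3. Zfp710 went from 157, 150, 165 and 153 to 92.3, 112, 101 and 105 CPM (-0.61 ± 0.08). Of 25 SWI/SNF and CHD remodellers, 0 rose and 2 fell (0 and 5 under library totals), with Arid1a at -0.46 ± 0.08 (-0.23 without a call with the length and GC offset). Of 30 Mediator subunits, 1 rose and 2 fell (0 and 8 under library totals), with Med12l at -0.96 ± 0.15. Of 22 nucleoporins, 0 rose and 1 fell (0 and 4 under library totals), with Nup62 at -0.74 ± 0.13. The last 3 families had medians of -0.02, -0.12 and -0.01.

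Cytoskeleton and transport families were mixed, with 33.3% of actin and Arp2/3 genes and 12.8% of solute carriers called, beside 16.5% of all tested genes. Of 30 actin and Arp2/3 genes, 9 rose and 1 fell (3 and 11 under library totals, where the median was -0.11 instead of 0.09). Tmsb10, which binds actin monomers, went from 59.1, 56.3, 65.3 and 62.4 to 129, 126, 161 and 134 CPM (1.18 ± 0.10), and Wasf2, an activator of the Arp2/3 complex, from 175, 214, 216 and 182 to 110, 118, 108 and 131 CPM (-0.75 ± 0.09). Of 219 solute carriers, 11 rose and 17 fell (5 and 38 under library totals). Slc2a6, a lysosomal sugar transporter, went from 5.37, 8.16, 9.06 and 12.4 to 56.9, 71.8, 89.8 and 53.2 CPM (2.96 ± 0.37), and Slco2b1, an organic anion transporter, from 444 to 524 CPM to 311 to 331 CPM (-0.60 ± 0.08), after 1803 CPM in control microglia.

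**Figure D5:**
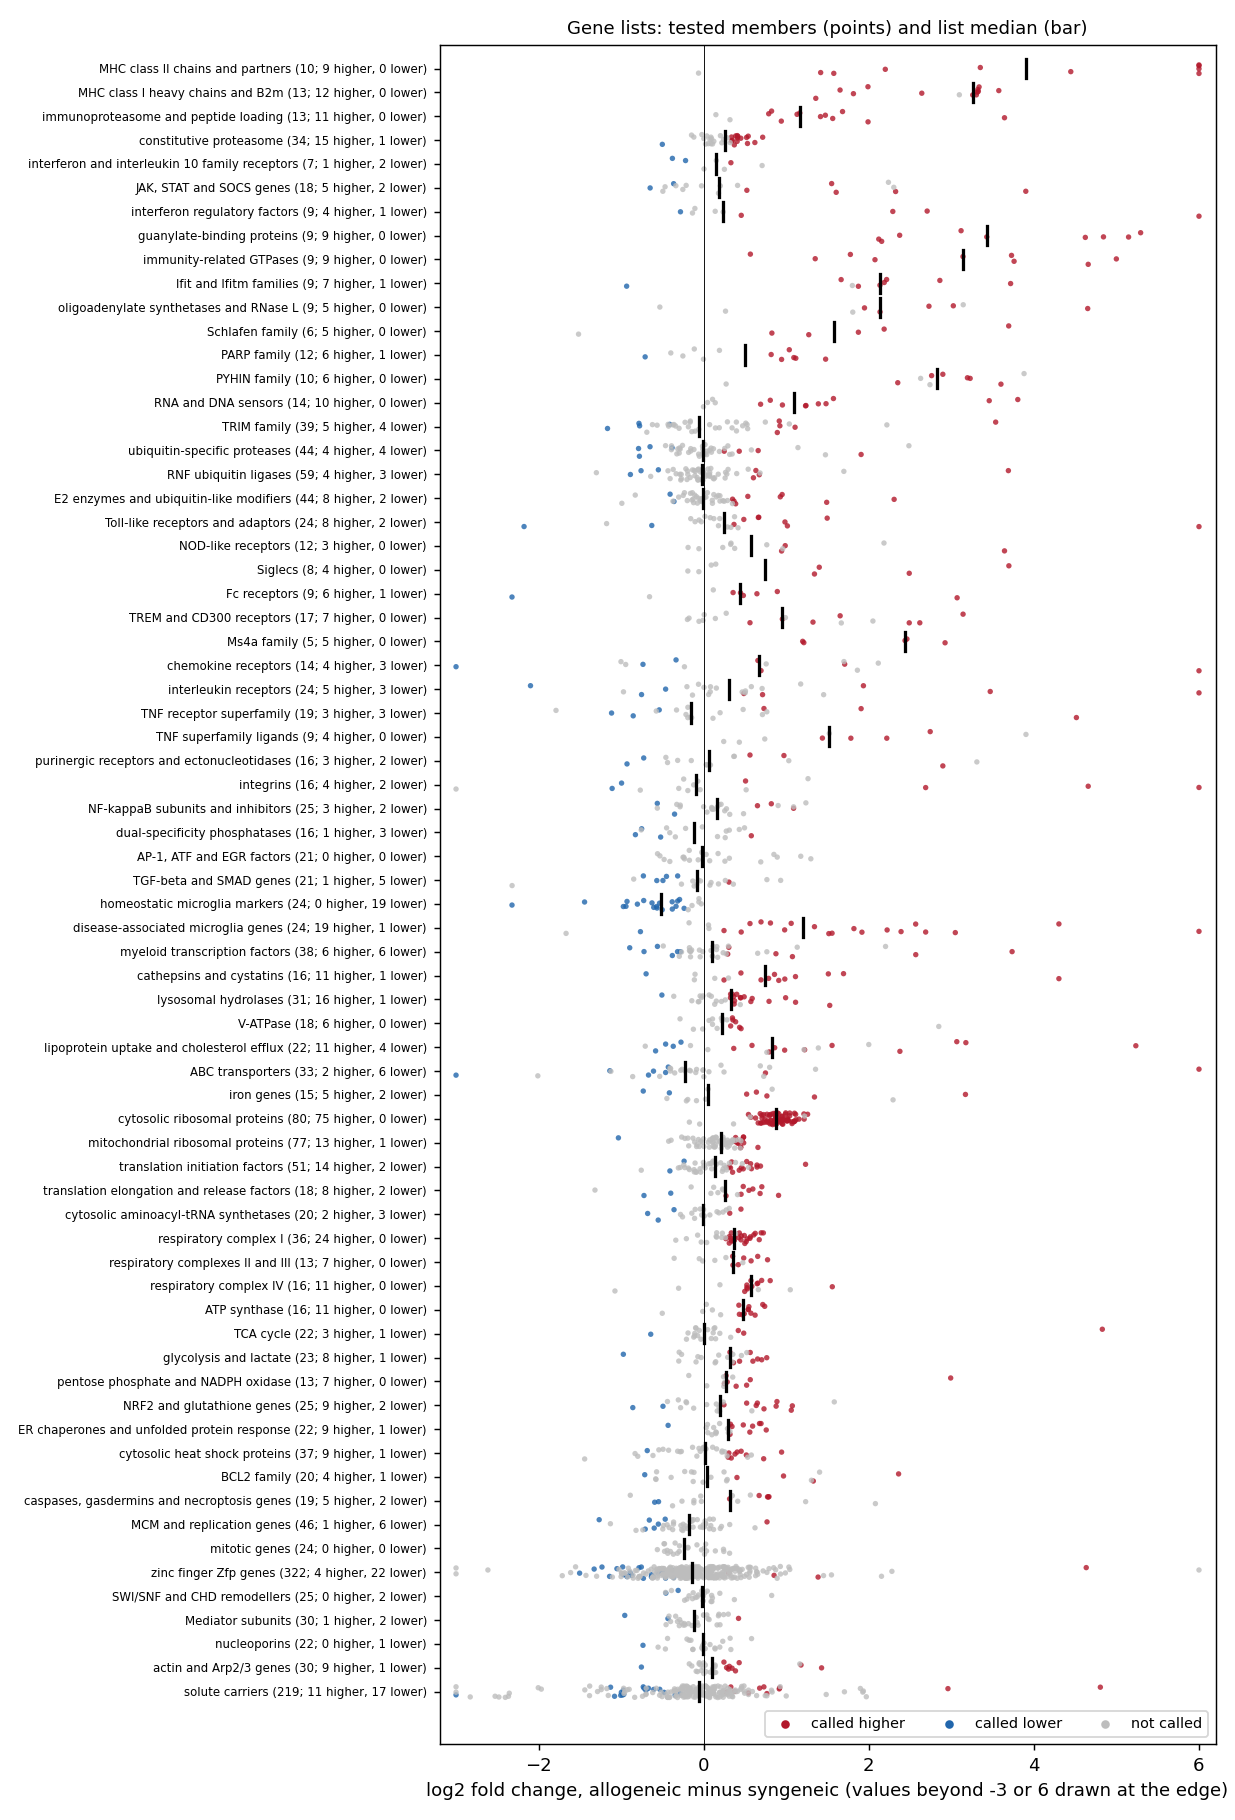
log2 fold change, allogeneic minus syngeneic (x axis), of each tested member (points) of the gene lists with 5 or more tested members, other than markers of other cells (rows, with counts of tested, called higher and called lower), and the list median (black bar). Medians run from -0.52 for homeostatic microglia markers to 3.90 for MHC class II genes, and the sign of medians between 0 and 0.20 depends on the scaling.

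Markers of other cells differed between the groups as well. For scale, 10.1% of all tested genes were called higher and 6.38% lower. Of 22 tested markers of monocytes and engrafted macrophages, 11 rose and 0 fell, and the list summed to 895.4 to 1058 CPM in syngeneic, 3420 to 4031 CPM in allogeneic and 312.4 to 362.3 CPM in control libraries. Its members include Cybb and Emilin2, described above. Ccr2, the chemokine receptor of classical monocytes, was at 6.35, 10.02, 9.67 and 6.01 CPM in syngeneic and 2.58, 4.27, 1.72 and 7.42 CPM in allogeneic libraries and was not called (-1.002 ± 0.39, edgeR adjusted p = 0.091, but called at 0.011 without allogeneic 4 and at 0.038 under library totals). These values moved with the rises of MHC, interferon and Ms4a genes, and their part in those results was not tested. Of 13 tested choroid plexus markers, 0 rose and 3 fell, with 5 falls without control 2, 6 without control 4 and 1 without syngeneic 1 or allogeneic 1, 3 or 4. Called or not, 0 of the 13 had a log2 fold change above 0 (median -1.45). In 7 of them the allogeneic libraries lay lower without overlap, beside 8.1% of all tested genes. This list summed to 1455 to 2540 CPM in syngeneic, 425.5 to 805.3 CPM in allogeneic and 21.93 to 147.4 CPM in control libraries, and Sostdc1, one of its members, was at 61.6, 26.4, 30.9 and 31.99 against 10.5, 12.8, 6.58 and 15.5 CPM. These values moved with genes that fell from a raised syngeneic level, and their part in those falls was not tested.

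The 10 NK and cytotoxic markers summed to 4.136 to 4.655 CPM in syngeneic and 23.26 to 38.32 CPM in allogeneic libraries, 2 of 3 tested rose, and Ncr1, Gzma, Prf1 and Ifng are listed at 0. T cell markers summed to 2.78 to 7.831 CPM in syngeneic and 2.697 to 5.925 CPM in allogeneic libraries, with 0 of 4 tested called by edgeR, DESeq2 or limma-voom, 0 at an unadjusted p under 0.05, and Themis listed at 0. B and plasma cell markers (13.39 to 27.08 against 18.02 to 27.64 CPM), neutrophil markers (320.7 to 366.1 against 336 to 397.6 CPM), neuron markers (14.43 to 30.14 against 16.62 to 25.14 CPM) and oligodendrocyte markers (116.3 to 178.3 against 131.2 to 146.7 CPM) overlapped between the groups. So did astrocyte markers (746.1 to 870.9 against 768.2 to 881.5 CPM), of which 2 rose and 2 fell of 14, and border-associated macrophage markers (1290 to 1463 against 1209 to 1391 CPM), of which 3 rose and 2 fell of 14. The sums also overlapped for endothelial and mural markers (18.88 to 31.99 against 25.93 to 47.96 CPM), of which 3 rose and 0 fell of 11, and for erythroid markers (7.066 to 18.07 against 7.436 to 17.4 CPM). A 0 in the table is no proof of absence, because Rpl26, Atp6v0c and Ndufs5, which nearly every cell uses, also have 0 counts in the 8 libraries.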

How the data were processed

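RNA was measured in sorted microglia of 12 mice, 4 per group. The submitters' processing notes name Trimmomatic 0.36, a read trimmer, STAR 2.5.2b, an aligner, and mouse build mm9. Per the labels' protocols, RNA with an integrity value of 8 and above was sequenced. The authors deposited raw counts for 24328 gene symbols. The sources used here do not give the counting tool, strand setting, annotation or treatment of shared reads.

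From these counts, genes were filtered with filterByExpr (minimum count 10), scaled by TMM and fitted over all 12 libraries in 1 quasi-likelihood model with group means in edgeR 4.0.16 (robust, R 4.3.3), so that the groups share 1 estimate of spread. Benjamini-Hochberg adjustment ran over all 12695 genes, with a call at 0.05. The 8 compared libraries hold at least 35559202 counts each, and genes outside the test held 0.0303% of all counts. Standard errors are the fold change divided by the root of the F statistic. The p-values measure the spread between these mice.

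Gene lists, named genes and motifs were chosen with earlier results of these data known. Of 107 lists, 82 are described, and some results are not reported here. The naming rule takes genes of smallest p per expression class and list, the most abundant called gene per size band, and called members against the majority; not all of them are printed. Transcript length and GC content are medians over the GENCODE M21 transcripts of a symbol. Of the tested genes, 12612 have both (23298 symbols matched directly, 650 by synonym, 380 did not). Promoters come from RefSeq, build GRCm38.p6, and no coordinates of the reads' build were used. The method was tested on simulated data with 200 changed genes. Alternatives were RLE factors, library totals, 2 other filters, DESeq2 1.42.0, limma-voom (limma 3.58.1), the 8 libraries alone, 2 minimum effects, a length and GC offset (loess span 0.3), each library left out, and a replicate block. Same-numbered libraries of the 2 groups were checked and did not deviate together.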

Additional observations from a re-analysis of the deposited data

Results flagged for a closer look

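In 28 of 543 sets of 4 libraries, 1 library lay far from the other 3, with a gap to the nearest over Dixon's 95% critical value. That is 5.16%, and chance gives about 1 in 20, so no pattern is read from them. Among genes that rose, the library that stood apart was syngeneic 1 for B2m (4548 CPM) and Cd52 (220.9 CPM), syngeneic 2 for Tgtp2 (7.712 CPM), Oasl2 (36.43 CPM), P2rx4 (82.51 CPM) and Gapdh (601.4 CPM), and syngeneic 3 for Ifi47 (9.693 CPM). It was syngeneic 4 for Tyrobp (1530 CPM) and Apoe (3208 CPM). Allogeneic 1 stood apart for Eif3h (480.4 CPM), allogeneic 2 for Neu1 (55.65 CPM), and allogeneic 3 for Irf1 (338.9 CPM), Trim25 (57.17 CPM) and Irg1 (26.97 CPM).

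Among genes that fell, allogeneic 2 stood apart for Abca13 (0.0801 CPM), allogeneic 3 for Tmem204 (8.322 CPM) and Nup62 (36.12 CPM), syngeneic 4 for Tgfbr1 (1504 CPM) and syngeneic 1 for Sostdc1 (61.65 CPM). Top2a, which was not called, had its lowest syngeneic value in syngeneic 4 (148 CPM).

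Among summed lists, syngeneic 2 stood apart for the PYHIN family (169.1 CPM) and glycolysis (4609 CPM), and syngeneic 4 for lipoprotein uptake and cholesterol efflux (7347 CPM) and respiratory complex IV (1841 CPM). Allogeneic 3 stood apart for the Ms4a family (2250 CPM) and actin genes (73710 CPM), and allogeneic 4 for dual-specificity phosphatases (1137 CPM) and lipoprotein uptake (13330 CPM).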

How the results depend on the processing

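The 2098 calls, 1288 higher and 810 lower, moved most with the scaling and with a minimum effect. Library totals gave 844 higher and 2108 lower, and 78.6% of the 2098 genes were called there in the same direction. A minimum effect of 0.5 left 626 calls (497 higher, 129 lower), and one of 1 left 233 (215 and 18). Under library totals the medians were -0.074 in the class below 0, -0.16 at 6 to 8, -0.11 for myeloid transcription factors, -0.072 for initiation factors and -0.11 for actin genes, where each is above 0 with TMM. The chemokine receptor median of 0.68 was -0.23 with the filter of 1 CPM, and -0.27 to 0.70 with 1 library left out. The cause was not tested.

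DESeq2 called 2444, limma-voom 2254, RLE factors 2124, the 8 libraries alone 2153, the length and GC offset 2079, and 2 other filters 2002 and 2126. Leaving out 1 library gave 1768 to 2115 calls, with at least 79.8% of the 2098 shared. A replicate block gave 2002 calls (1215 higher, 787 lower), 1911 of them shared. With the block Ctsd lost its call, and Top2a and Ccr2 gained one. Correlations of same-numbered libraries were -0.015 to 0.0317, and those of libraries with different numbers were -0.0375 to 0.0353. The numbers were not treated as a pairing. These correlations over all tested genes cannot exclude one, and whether the numbers stand for anything is not given. Rare genes limit the comparison, since a median SE of 1.40 below 0 in log2 CPM leaves all but very large changes undetectable.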
